A study of Mus musculus with 9 samples.

Results

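The kidney transcripts of the lipogenesis and desaturation enzymes were compared between wild-type mice and mice lacking Bmal1, a transcription factor of the circadian clock that binds E-box sites together with Clock. The set was chosen by gene symbol and holds 10 of the 23282 rows of the deposited tables: Srebf1, Acly, Acaca, Fasn, Me1, Scd1, Scd2, Fads1, Fads2 and Elovl6. Each symbol was found once in every table. The study holds 9 libraries of kidney RNA from C57BL/6 mice, 4 labelled wildtype (wild type 1 to 4) and 5 labelled Bmal1 -/- (knockout 1 to 5). No treatment is labelled, and the sources used here do not give age, sex, hour of sampling, feeding state or the deleted part of Bmal1. The labels do not say whether libraries are separate animals. The p-values therefore cover the spread among these 9 libraries only, which may be technical.

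Fatty acid synthesis starts from citrate, which ATP citrate lyase (Acly) splits to acetyl-CoA. Acetyl-CoA carboxylase (Acaca) turns this into malonyl-CoA, and fatty acid synthase (Fasn) builds palmitate from malonyl-CoA with NADPH, part of which is made by cytosolic malic enzyme (Me1). Elovl6 lengthens palmitate to stearate, the stearoyl-CoA desaturases Scd1 and Scd2 place the first double bond, and Fads2 and Fads1 desaturate the polyunsaturated chains that come from the diet. Srebf1 encodes SREBP-1, a transcription factor that switches on most of these enzymes after feeding, mainly known from liver and fat.

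The assay was 3′ mRNA sequencing, in which each transcript gives about 1 tag near its poly(A) end, so levels can be set side by side between genes without a correction for length. Values are the authors' log2(x + 1), where x is a read count adjusted towards a common library size. The adjusted totals were 11765219 to 13486444 per library, and the raw depth is unknown. Testing required an x of 10 or more in 4 or more of the libraries; 13481 rows passed, all 10 enzymes among them. Differences are knockout minus wild type on the log2(x + 1) scale from limma, and a gene was called at an adjusted p under 0.05 over all tested rows. Arntl, the gene of Bmal1, ranged from 6.26 to 7.06 in wild type and from 5.65 to 5.99 in knockout, a decrease (limma adjusted p = 0.0112); a 3′ tag outside the deleted part would still be read, so this does not check the labels.

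Of the 10 enzymes, Me1 and Fads1 fell and Elovl6 rose in knockout kidney, and the other 7 did not pass the test. Over all tested genes 14.4% were called, 6.16% higher and 8.20% lower. The median difference of the 10 was -0.08, beside 0.0002 over all tested genes. The same 3 enzymes were those whose genotypes did not overlap, against 14.3% of all tested genes (5.86% higher and 8.46% lower).

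Promoters of the called genes Me1 and Elovl6 are shown because the deleted protein acts through DNA sites. Those of Acly and Fasn, which were not called, are given for comparison. No promoter was at hand for Fads1. For Me1 only the outer of its 2 promoters is shown, and the inner one holds a CCAAT match. Each run holds the bases before the RefSeq start site (GRCm38.p6) up to the first annotated exon, read 5′ to 3′ on the gene's strand. Capitals mark AGGTCA, the part shared by ROR elements, or CCAAT, on either strand; in Fasn a pair of CCAAT matches on opposite strands overlaps in 1 stretch. Me1 is at chr9:86695954-86696164 (minus strand), Elovl6 at chr3:129532136-129532256 (plus), Acly at chr11:100528001-100528250 (minus) and Fasn at chr11:120824548-120824797 (minus).
Me1: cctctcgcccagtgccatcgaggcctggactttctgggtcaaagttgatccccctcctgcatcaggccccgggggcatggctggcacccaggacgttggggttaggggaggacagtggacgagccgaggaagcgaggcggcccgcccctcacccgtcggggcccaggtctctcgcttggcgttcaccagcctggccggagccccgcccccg
Elovl6: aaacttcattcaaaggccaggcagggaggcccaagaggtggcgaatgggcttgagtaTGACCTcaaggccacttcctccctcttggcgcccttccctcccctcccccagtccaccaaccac
Acly: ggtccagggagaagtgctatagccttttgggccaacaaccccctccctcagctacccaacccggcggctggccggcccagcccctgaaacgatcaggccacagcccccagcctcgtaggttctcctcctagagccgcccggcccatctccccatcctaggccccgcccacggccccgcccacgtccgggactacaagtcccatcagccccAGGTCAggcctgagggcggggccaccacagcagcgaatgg
Fasn: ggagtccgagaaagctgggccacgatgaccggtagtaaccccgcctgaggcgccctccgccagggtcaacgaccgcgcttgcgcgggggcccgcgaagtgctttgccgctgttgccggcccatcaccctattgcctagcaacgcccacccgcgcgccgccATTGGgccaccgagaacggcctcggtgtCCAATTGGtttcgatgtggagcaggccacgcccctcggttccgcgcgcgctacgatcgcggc

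RefSeq promoters were at hand for 7 of the 10 genes, and 3 (Scd1, Scd2 and Fads1) had no entry. The E-box letters CACGTG, searched on both strands in the 250 bases before each start, were in 0 of the 10 promoters of those 7 genes and in 6.02% of all 32851 promoters. AGGTCA was in the promoters of Elovl6, 193 bases before the start, and Acly, 40 bases before it, and in 4607 of all 32851. CCAAT was in the promoter of Fasn, in 2 of the 3 of Srebf1 and in the inner of the 2 of Me1, and in 33.8% of all promoters. The sterol response element core TCACNCCAC matched none of the 10 and 1.05% of all. These are matches of letters in a short window and locate no binding, and the motifs were chosen with the values known.

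Me1 was the most abundant of the enzymes. Its values were 12.60, 12.50, 12.67 and 12.51 in wild type 1 to 4, and 11.69, 11.56, 11.48, 11.57 and 11.79 in knockout 1 to 5. All 5 knockouts lay below all 4 wild types, and neither genotype held a library that stood apart. The log2 difference of Me1 was -0.95 (SE 0.10), with a limma adjusted p of 1.80e-06; its level fell to 0.516 of that in wild type, and held rank 99 of all tested genes by p. Wild types had a mean of 6097 ± 337 adjusted reads (SD, n = 4), and knockouts 3152 ± 268 (SD, n = 5). The gene lies at chromosome 9, 86581371 to 86695953, minus strand (GRCm38), and 30 bases of its exons overlap an antisense transcript, A330041J22Rik. Whether the authors counted by strand is not stated in the sources at hand.

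Fads1, the desaturase of a late step in the synthesis of arachidonic acid, fell with a similar lack of overlap. It was found at 9.26, 9.16, 9.45 and 9.37 in the 4 wild types and 8.79, 8.61, 8.69, 8.41 and 8.55 in the 5 knockouts. The lowest wild type stood above the highest knockout. The difference was -0.70 (SE 0.12, limma adjusted p = 0.000496), a level of 0.617 relative to wild type. Its neighbour on chromosome 19, Fads2, whose product does the first desaturation step, had 5.60, 5.63, 5.75 and 5.31 in the 4 wild types and 5.48, 5.14, 6.47, 6.01 and 5.69 in the 5 knockouts. These ranges overlap, the knockouts spread more widely (SD 0.51 against 0.19), and the difference of Fads2 was 0.18 (SE 0.28, adjusted p = 0.718, 95% interval -0.39 to 0.76). Fads2 was the least abundant enzyme, with 46.9 ± 5.93 adjusted reads in wild type, so its values rest on few tags. The genes lie 81141 bases apart, Fads2 at 10062765 to 10101746 (minus strand) and Fads1 at 10182888 to 10196877 (plus strand).

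Within a library, the log2 level of Fads1 minus that of Fads2 was 3.66, 3.53, 3.69 and 4.06 in the 4 wild types and 3.31, 3.47, 2.22, 2.41 and 2.86 in the 5 knockouts. Each knockout was below each wild type, with means of 3.73 ± 0.23 and 2.85 ± 0.54. This is a description of a pair chosen after its values were known.

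Part of the proximal tubule markers were lower beside the decreases of Me1 and Fads1. Slc5a2 (0.08), Slc5a12 (0.04) and Aqp1 (0.17) had differences above 0 and did not pass. Of 12 tested markers 6 fell and 0 rose. The most abundant, the phosphate transporter Slc34a1, had -0.28 (limma adjusted p = 0.173) and the fatty acid transporter Slc27a2 fell by 0.61. The other called markers were Slc22a8 (-1.32), Slc22a6 (-1.21), Slc13a3 (-0.96), Ggt1 (-0.89) and Fbp1 (-0.38). Me1 (-0.95) and Fads1 (-0.70) lay within that range. The summed x of the 12 markers was 118000 to 146000 in wild type and 87600 to 105000 in knockout. The exact permutation p was 0.00794 (two-sided, the smallest these 4 and 5 libraries can give), or 0.0556 adjusted over 14 library measures. Fewer cells of a type and less RNA per cell cannot be told apart in such bulk libraries. Relative to that sum, the log2 level of Me1 was -4.58 to -4.35 in wild type and -5.08 to -4.85 in knockout, a mean difference of -0.47 without overlap. The same quantity for Fads1 was -7.77 to -7.70 and -8.13 to -7.82, a mean difference of -0.22, also without overlap. What part the tubule markers' decrease has in either change was not tested.

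Elovl6 was the enzyme that rose. Its values were 7.04, 7.02, 8.04 and 7.77 in the 4 wild types and 8.49, 8.52, 8.42, 8.14 and 8.86 in the 5 knockouts. Wild type 1 and 2 lay about 1 unit below wild type 3 and 4, while the knockouts lay close together and above all wild types, the nearest gap being between wild type 3 and knockout 4. The difference was 1.02 (SE 0.20, limma adjusted p = 0.00213), 2.03 times the wild-type level, or 184.5 ± 66.1 and 362.7 ± 66.1 adjusted reads. Elovl6 lies at chromosome 3, 129532355 to 129638495, plus strand, and shares 34 exon bases with the antisense transcript Gm35986.

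Many other genes shared the order of the wild types seen for Elovl6. Numbers 1 and 2 were both below 3 and 4 in 24.4% of all tested genes, in 6 of 9 markers of the distal nephron and collecting duct, and in 5 of 12 proximal tubule markers, such as Lrp2. Among the distal markers, Pvalb, Aqp2 and Atp6v1g3 did not show it. The distal sum of x was 20724.0 and 20589.0 in wild type 1 and 2, 37411.7 and 33111.7 in wild type 3 and 4, and 24974.3 to 32541.0 in knockout. Umod and the thick limb cotransporter Slc12a1 made up 64.2% to 81.0% of that sum; neither passed the test (-0.47, limma adjusted p = 0.067, and 0.33, adjusted p = 0.369). Of the 9 distal markers 5 rose, and the sum without Umod and Slc12a1 was higher in every knockout (8304.1 to 10131.6) than in any wild type (5614.6 to 7347.3).

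Relative to the whole distal sum, the log2 level of Elovl6 was -7.32 to -7.16 in wild type and -6.56 to -5.93 in knockout, a mean difference of 0.97. Relative to the proximal tubule sum it was -10.01 to -9.12 and -8.28 to -7.81, a mean difference of 1.51. The genotypes did not overlap on either scale, but the distal scale rests mostly on Umod and Slc12a1. Without those genes the distal sum was 7347.3 in wild type 3 and 8831.3 in knockout 4, where Elovl6 was at 8.04 and 8.14. Relative to that smaller sum, Elovl6 was lower in knockout 4 than in wild type 3, so the genotypes overlapped there. The summed x of urothelial markers was higher in every knockout, 265 to 956 against 52.6 to 173 in wild type. The exact permutation p was 0.0238, adjusted 0.0833 over the 14 measures. Of the tested urothelial markers 5 of 6 rose, Psca and Upk3a being the most abundant and Upk1a rising by 2.06. Single markers such as Upk1b overlapped, with 4.47 in wild type 2 and 4.16 in knockout 4. Endothelial (3 of 7) and fibroblast (2 of 6) markers rose in part as well. Of the endothelial genes Plvap (adjusted p = 0.000236) and Pecam1 (0.83) rose and Kdr did not pass (-0.11, limma adjusted p = 0.752); of the matrix genes Dcn rose (0.66) and Col3a1 did not pass (0.57, adjusted p = 0.0597). The part of these cell types in the level of Elovl6 was not tested.

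**Figure D1:**
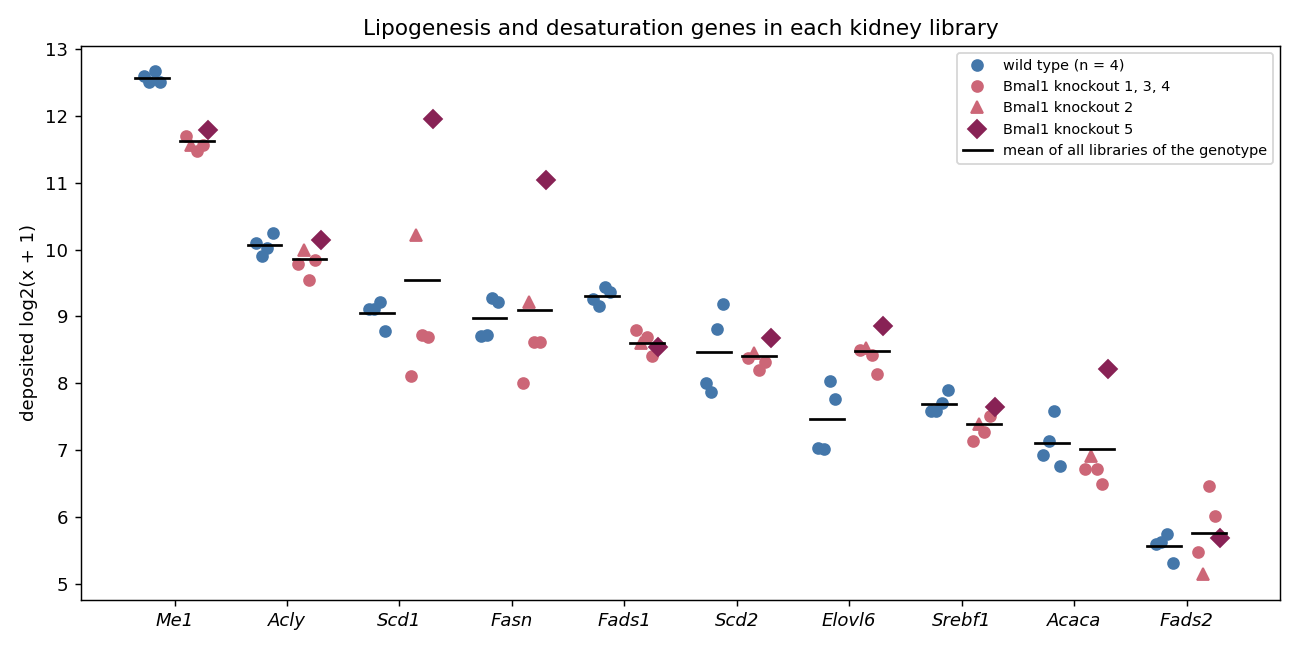
Deposited log2(x + 1) values (vertical axis) of the 10 enzymes, ordered by mean level, in 4 wild-type and 5 Bmal1 knockout libraries; each point is a library and each bar the mean of its genotype. Genotypes separate for Me1, Fads1 and Elovl6, and knockout 5 lies far above the other libraries for Scd1 and Fasn.

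The order of levels in wild type was Me1 (mean 12.57), Acly (10.07), Fads1 (9.31), Scd1 (9.06), Fasn (8.98), Scd2 (8.47), Srebf1 (7.69), Elovl6 (7.47), Acaca (7.10) and Fads2 (5.57). Ranges over the 4 libraries were separate only between Me1 and Acly, Acly and Fads1, and Acaca and Fads2; the other neighbours overlapped. In knockout, Elovl6 (8.49) stood above Scd2 (8.41) and Srebf1 (7.39), and Scd1 (9.54) and Fasn (9.10) above Fads1 (8.61), with knockout 5 included; without it the means were 8.94 for Scd1, 8.61 for Fasn and 8.63 for Fads1.

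Scd1 and Fasn were dominated by knockout 5. Scd1 values were 9.12, 9.11, 9.21 and 8.78 in the 4 wild types and 8.11, 10.22, 8.73, 8.70 and 11.95 in the 5 knockouts. Knockouts 1, 3 and 4 lay below all wild types, and knockouts 2 and 5 above all of them. Fasn was at 8.70, 8.73, 9.27 and 9.22 in the 4 wild types and 8.001, 9.22, 8.61, 8.61 and 11.04 in the 5 knockouts. Again knockouts 1, 3 and 4 were below all wild types, knockout 2 was within their range and knockout 5 was above it. With all libraries the difference was 0.49 for Scd1 (SE 0.51, limma adjusted p = 0.583, 95% interval -0.58 to 1.56) and 0.12 for Fasn (SE 0.40, adjusted p = 0.887, interval -0.72 to 0.95).

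Acaca, which makes the malonyl-CoA that Fasn uses, showed the same library standing apart. Its values were 6.93, 7.14, 7.59 and 6.76 in the 4 wild types and 6.71, 6.92, 6.72, 6.498 and 8.21 in the 5 knockouts, a difference of -0.09 (SE 0.28, limma adjusted p = 0.875, 95% interval -0.69 to 0.50). Knockout 5 was 3.01 above the mean of the other knockouts for Scd1, 2.43 for Fasn and 1.501 for Acaca, against 0.21 to 0.47 for Srebf1, Acly, Me1, Scd2 and Elovl6 and -0.08 for both Fads1 and Fads2. By this distance Scd1 held rank 9 and Fasn rank 15 among all 13481 tested rows. Knockout 5 was the highest knockout for 8 of the 10 enzymes, a count that was not set against all tested genes. For Srebf1, Acly, Me1, Scd2 and Elovl6 the distance ranked only 1263 to 3343.

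Knockout 5 also held transcripts of fat cells. Ucp1, the uncoupling protein of brown fat, was at 10.29 in knockout 5 and 7.003 in knockout 2, at most 2.60 in knockouts 1, 3 and 4 and at most 2.43 in wild type. Adipoq, which encodes the fat cell hormone adiponectin, was at 9.06 in knockout 5, 6.44 in knockout 2 and 4.69 in knockout 4, and at most 2.82 in the other 6 libraries. All 6 brown adipocyte markers and 9 of 10 white adipocyte markers were highest in knockout 5. Of the 3 brown and 5 white markers tested between genotypes, Dio2 rose and the rest did not pass, among them Cox8b (2.94, limma adjusted p = 0.0612), Cox7a1 (0.23, adjusted p = 0.295), Fabp4 (adjusted p = 0.163) and Car3 (-0.49, adjusted p = 0.409).

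Summed over the whole lists, x of brown adipocyte markers was 296 to 443 in wild type and 375 to 3250 in knockout (exact permutation p = 0.278), and that of white markers 1640 to 3160 and 1980 to 11400 (p = 0.357); adjusted over the 14 measures these were 0.324 and 0.385. Much of these sums is Cox7a1 and Fabp4, found at 8.19 or more and 10.23 or more in every library. Without Cox7a1, the brown sum was 3.9 to 22.8 in wild type and 29.6, 264.4, 49.3, 61.9 and 2759.9 in knockout 1 to 5. In knockouts 1 and 4 most of it was Dio2 (4.69 and 5.45). Ucp1, Cidea and Cox8b were at 0, 1.34 and 2.12 in knockout 1, each below wild type 2 (2.43, 2.12 and 3.415). Otop1 was at the floor in both libraries (0 and 0.06). Without Fabp4, Car3 and Slc2a4, the white sum was 1.9 to 15.6 in wild type and 2.4, 259.3, 66.4, 71.0 and 2212.7 in knockout. These trimmed sums were chosen after the values were seen. In knockout 1, 5 of the 10 white markers (Adipoq, Cidec, Lep, Retn and Cfd) and 2 of the 6 brown markers (Ucp1 and Otop1) were listed at 0. In wild type 3 these counts were higher, 6 of the white and 4 of the brown markers.

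Levels of Scd1 and Fasn followed the same order among knockouts as Ucp1 and Adipoq, as far as the extremes go. Knockout 5 was highest and knockout 2 next for Ucp1, Adipoq, Scd1 and Fasn, and knockout 1 lowest for all 4. Other fat cell markers differed. Dio2 was at 4.69 in knockout 1 and 5.45 in knockout 4, above 3.7 in knockout 2, and Slc2a4 was highest in knockout 1 (7.58). Among wild types, number 3 was highest for Scd1 (9.21) and Fasn (9.27), while Ucp1 and Adipoq were at 0 there. Thrsp, a lipogenic coregulator that is abundant in fat and liver, was at 10.42 in knockout 5, 8.20 in knockout 2, and 6.32 in knockout 1 (5.51 to 7.02 in wild type); its difference of 1.69 did not pass (SE 0.57, limma adjusted p = 0.0556), and it is named after its values were seen. Elovl3, an elongase of brown fat, was at 4.87 in knockout 5, 1.49 in knockout 2 and at most 0.14 elsewhere, and was below the filter. The shared order rests mainly on knockouts 5 and 2, and the part of fat cells in the levels of Scd1 and Fasn was not tested.

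**Figure D2:**
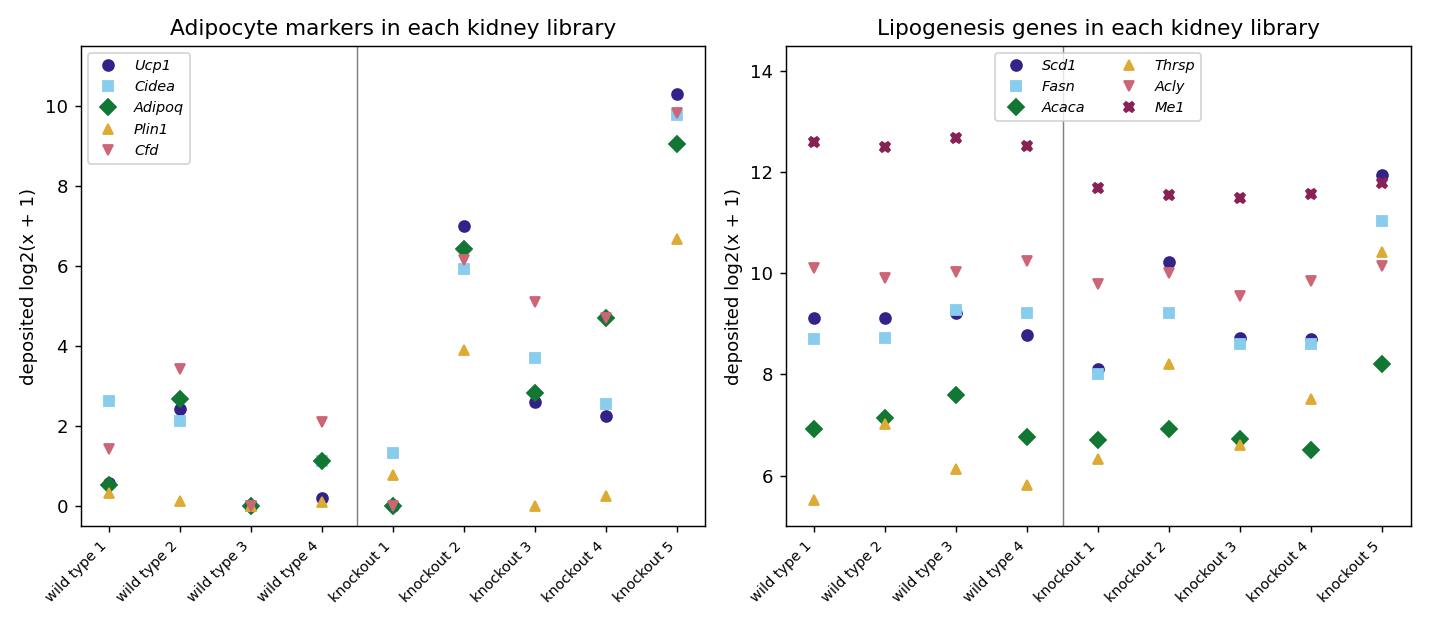
Deposited log2(x + 1) values (vertical axes) of 5 adipocyte markers (left) and 6 lipogenesis genes (right) in each library (horizontal axes; the grey line parts the genotypes). Knockout 5, and next to it knockout 2, hold the highest marker levels, and the same libraries hold the highest Scd1 and Thrsp.

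Leaving out knockout 5 turned the direction of Scd1 to -0.12 (SE 0.30, limma adjusted p = 0.854) and of Fasn to -0.37 (SE 0.21, adjusted p = 0.281), and moved Acaca to -0.39 (SE 0.21, adjusted p = 0.245). Without knockouts 2 and 5, an alternative chosen after the data were seen, Scd1 was at -0.54 (SE 0.17, adjusted p = 0.0700), Fasn at -0.57 (SE 0.19, adjusted p = 0.0881) and Acaca at -0.46 (SE 0.23, adjusted p = 0.255). None of these passed the test. The calls of Me1 (-0.996 and -0.99), Fads1 (-0.68 and -0.675) and Elovl6 (0.93 and 0.89) held in both fits, with 12.2% (5.04% higher, 7.15% lower) and 7.99% of all tested genes called. No other enzyme was called in either.

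**Figure D3:**
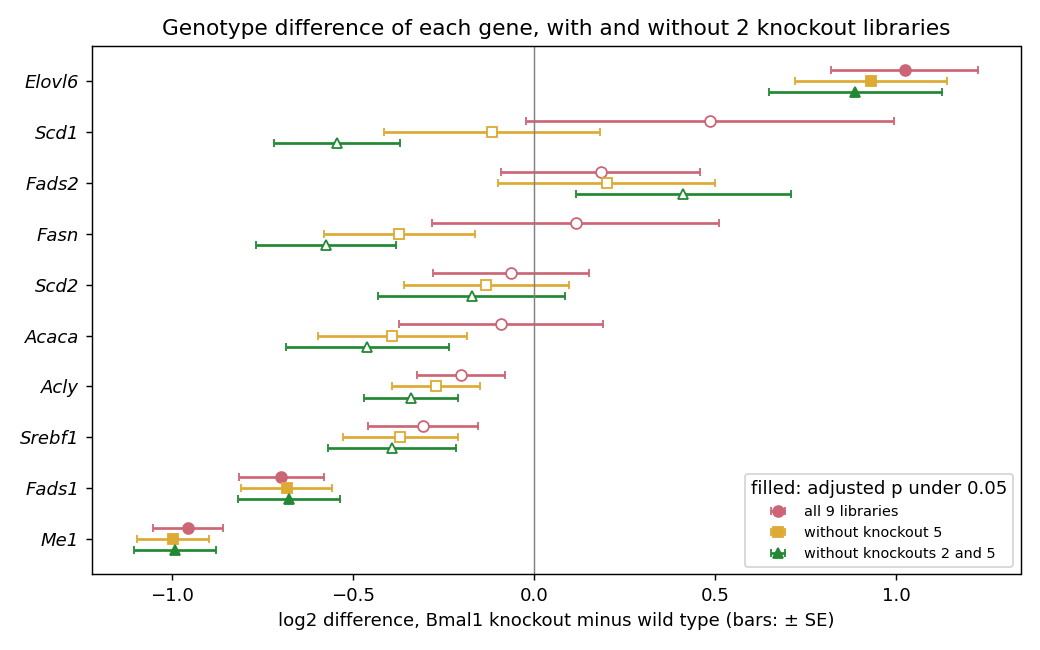
Log2 difference (knockout minus wild type, horizontal axis) of each enzyme, with bars of 1 SE, from all 9 libraries, without knockout 5, and without knockouts 2 and 5; filled symbols passed the adjusted threshold. Scd1 and Fasn cross 0 when knockout 5 is left out, and Me1, Fads1 and Elovl6 stay in place.

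Srebf1 and Acly had small differences that did not pass. Srebf1 was at 7.58, 7.58, 7.71 and 7.90 in the 4 wild types and 7.13, 7.395, 7.27, 7.504 and 7.64 in the 5 knockouts. Knockouts 1 to 4 were below all wild types and knockout 5 lay between them, so the genotypes overlap in 1 library. The difference was -0.31 (SE 0.15, limma adjusted p = 0.205, 95% interval -0.63 to 0.02), and -0.37 without knockout 5 (adjusted p = 0.15). Tags at the 3′ end do not part the SREBP-1a and SREBP-1c transcripts, and 109 exon bases overlap Rai1 on the other strand. Acly was at 10.10, 9.90, 10.02 and 10.24 in the 4 wild types and 9.79, 10.001, 9.55, 9.84 and 10.15 in the 5 knockouts, with a difference of -0.20 (SE 0.12, adjusted p = 0.311, interval -0.46 to 0.06).

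Scd2, the desaturase form of brain and many other tissues, varied more among wild types than between genotypes. Its values were 8.01, 7.87, 8.81 and 9.19 in the 4 wild types and 8.38, 8.46, 8.20, 8.32 and 8.68 in the 5 knockouts. All knockouts lay between the low pair, wild type 1 and 2, and the high pair, wild type 3 and 4. The difference was -0.06 (SE 0.22, limma adjusted p = 0.887, 95% interval -0.52 to 0.39). Relative to the distal nephron and collecting duct markers its log2 level was -6.47 to -5.83 in wild type and -6.61 to -6.11 in knockout, which overlap. Scd1 lies 87590 bases from Scd2 on chromosome 19, yet Scd1 minus Scd2 ranged from -0.41 to 1.24 in wild type and from -0.27 to 3.27 in knockout. The paralogs share coding sequence, but tags lie near the poly(A) end, and the likeness of the 3′ ends was not examined. The authors' handling of reads common to both is not stated in the sources at hand, so how well reads part them is unknown.

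Genes around the pathway were taken from 5 lists and held 76 tested genes, of which 18 (23.7%) were called, 15 lower and 3 higher; over all tested genes 14.4% were called. The split depended on the scaling: 8 were lower and 7 higher with scaling to the total without Rn45s, 8 and 6 with upper-quartile scaling, 8 and 5 with quantile normalization, and 9 and 3 with scaling to the total. These are 15.8% to 19.7% of the 76, where 1748 to 1967 of all 13481 tested genes were called. Without wild type 4 the number called was 9, and without knockouts 2 and 5 it was also 9. Medians of the lists ran from -0.27 to -0.03.

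Among 19 regulators of lipogenesis 5 fell and 1 rose, with a median of -0.20. Of those that fell, Scap (-0.365) and Mlx (-0.344) lost their calls in 14 and 16 of the 23 alternative settings. Mlxipl, which encodes the carbohydrate-sensing factor ChREBP, was at 8.66, 8.62, 8.55 and 8.41 in the 4 wild types and 8.09, 7.78, 8.06, 7.77 and 7.84 in the 5 knockouts. Every knockout was below every wild type, and Mlxipl fell by 0.65 (SE 0.13, limma adjusted p = 0.00201). Nr1h3, the oxysterol receptor LXRα, which induces Srebf1 in liver, fell by 0.49 (SE 0.12, adjusted p = 0.0115), from 9.25 to 9.62 in wild type to 8.75 to 9.09 in knockout; without wild type 2 and knockout 4 it missed the threshold (0.0654). Its partner Rxra fell by 0.35 (SE 0.10, adjusted p = 0.0214), but not on leaving out wild type 3 (0.0510), wild type 4 (0.0539) or knockout 2 (0.0557). The call of Rxra was lost in 8 of the 23 alternative settings. Cebpa, a factor of fat and liver cells, rose by 0.54 (SE 0.16, adjusted p = 0.0286) and was highest in knockouts 5 and 2. Its call ended without knockout 5 (0.0759), knockout 2 (0.0753) or wild type 4 (0.105), among 6 settings. The most abundant regulators, Usf2 (0.05) and the SREBP-cleaving protease gene Mbtps1 (-0.08), did not pass.

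Of 16 genes that supply acetyl-CoA and NADPH 2 rose and 1 fell, median -0.03. The mitochondrial acetyl-CoA synthetase Acss1 rose by 0.38 (SE 0.10, limma adjusted p = 0.0154). Its call was lost without knockouts 2 and 5 (0.0748) and with 1 prior variance for all genes (0.0561). Transketolase Tkt rose by 0.46 (SE 0.12, adjusted p = 0.0156), but not without wild type 3 (0.0508) or wild type 4 (0.0531), among 5 settings. Pgd, an NADPH-producing enzyme of the pentose phosphate path, fell by 0.33 (SE 0.10, adjusted p = 0.0335), a call that each of 6 libraries (wild type 1, 3 and 4, knockout 2, 3 and 4) ended when left out (adjusted p 0.0619 to 0.0902), among 14 settings. Mdh1 and Idh1, the most abundant, had -0.03 and 0.03. The citrate carrier gene Slc25a1, which feeds Acly, was at -0.01 (adjusted p = 0.953) and is named after its value was seen.

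Of 7 tested genes of malonyl-CoA and mitochondrial fatty acid synthesis, 1 fell. This was Mlycd, malonyl-CoA decarboxylase, by 0.39 (SE 0.12, limma adjusted p = 0.0326); its call ended in 14 settings, among them each fit that lacked 1 of wild type 1, 2 and 4 or knockout 2, 3 and 4 (0.0604 to 0.0871). Cbr4, next in level, had 0.03.

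Of 15 tested elongases, desaturases and elongation partners outside the 10 enzymes, 6 fell and 0 rose, median -0.27. Hacd2 (-0.68), 1 of those that fell, lost its call in 7 of the 23 alternative settings. Degs2, a sphingolipid desaturase and hydroxylase, was at 9.87, 9.75, 9.05 and 9.71 in the 4 wild types and 8.19, 7.85, 8.01, 8.18 and 7.87 in the 5 knockouts. All knockouts lay below all wild types, and Degs2 fell by 1.57 (SE 0.16, limma adjusted p = 1.32e-06). Its exons share 278 bases with Evl on the other strand. Elovl1, which lengthens very long saturated chains, fell by 0.64 (SE 0.12, adjusted p = 0.00147), so that among elongases Elovl1 and Elovl6 moved in opposite directions. Degs1, the ceramide-forming desaturase, fell by 0.55 (SE 0.11, adjusted p = 0.00243). Cyb5r3 and Cyb5a, the electron donors of the desaturases, fell by 0.39 (SE 0.11, adjusted p = 0.0193) and 0.38 (SE 0.12, adjusted p = 0.0370). Cyb5r3 lost its call in 9 settings, such as without wild type 2 (0.0501) or knockout 2 (0.0561), and Cyb5a, the most abundant of the list, on leaving out any of 7 libraries (wild type 1, 2 and 4, knockout 1, 3, 4 and 5), among 15 settings.

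Of 19 tested genes of acyl-CoA activation and glycerolipid synthesis 2 fell and 0 rose, median -0.17. Mogat1, which makes diacylglycerol from monoacylglycerol, was at 11.26, 10.44, 10.79 and 10.76 in the 4 wild types and 9.88, 9.62, 9.50, 9.29 and 9.55 in the 5 knockouts. It was lower in all knockouts and fell by 1.25 (SE 0.15, limma adjusted p = 1.09e-05); 200 of its exon bases overlap BC035947 on the other strand. Lpin1, a phosphatidate phosphatase, fell by 0.53 (SE 0.13, adjusted p = 0.00899), with knockout 5 at 9.36, level with the lowest wild type. The most abundant members, Agpat3 (-0.17) and Acsl1 (0.42, adjusted p = 0.0556), did not pass.

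**Figure D4:**
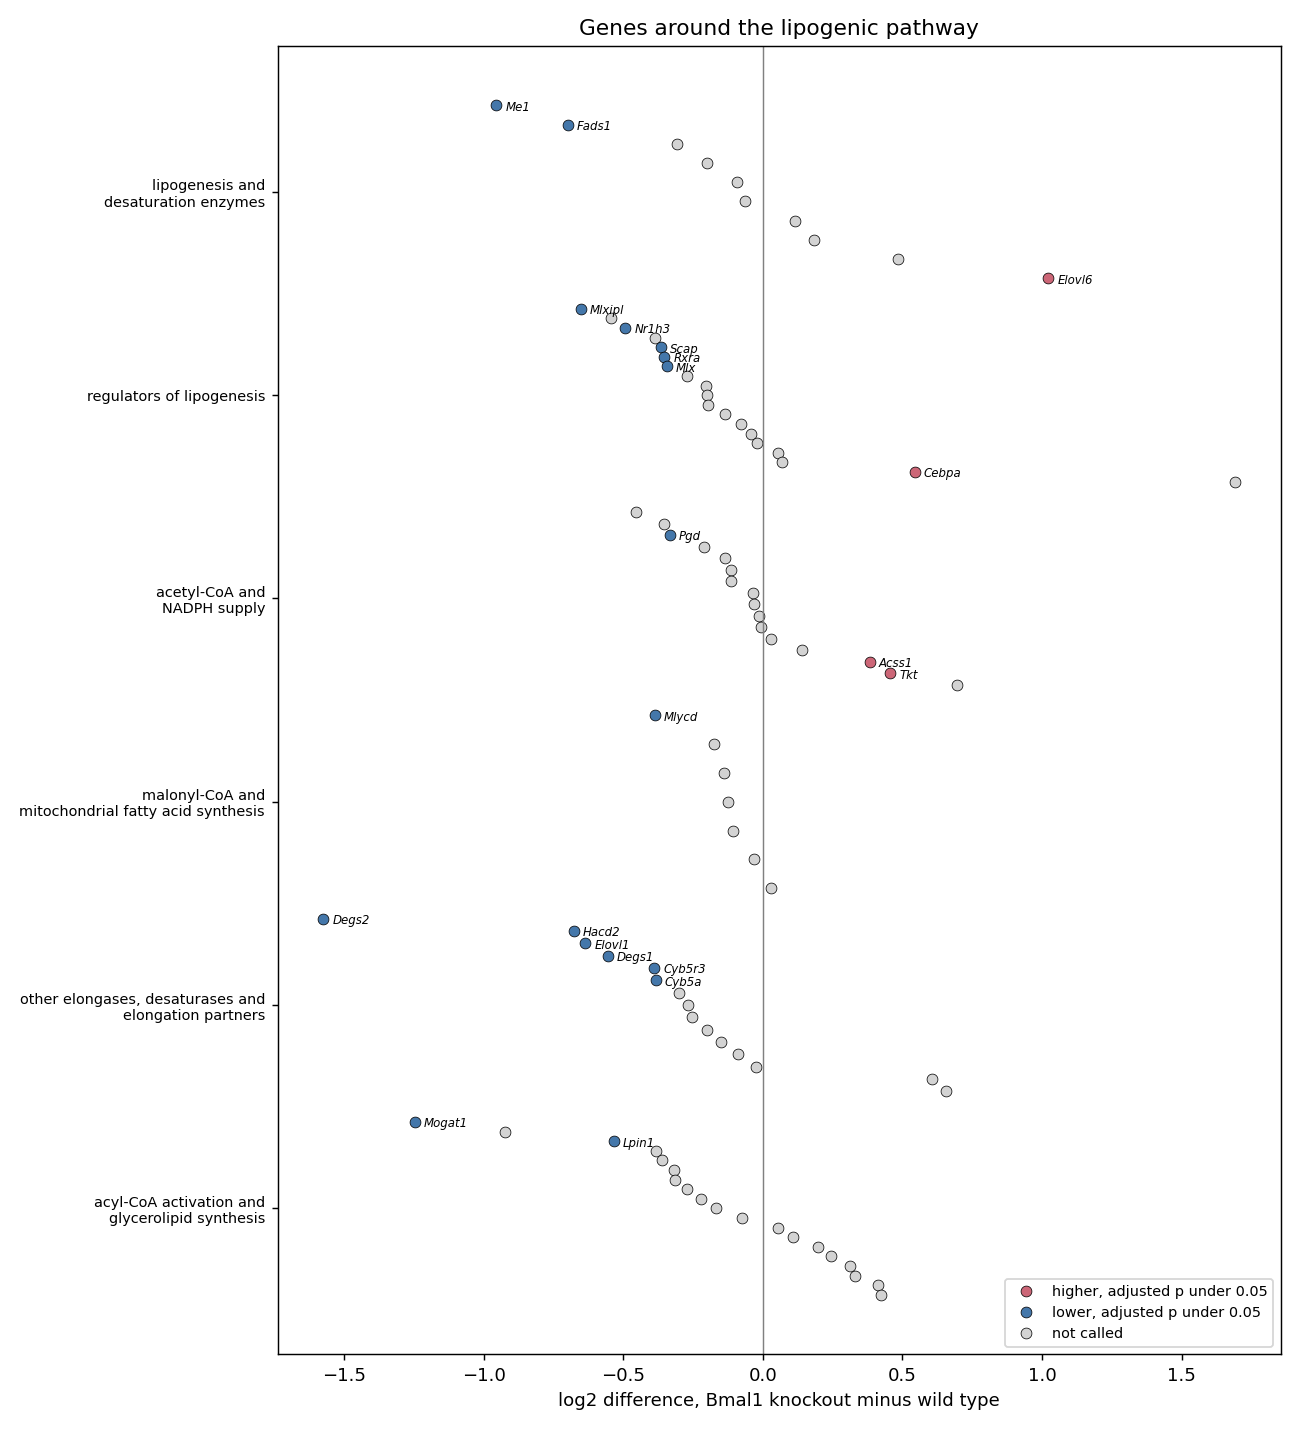
Log2 difference (knockout minus wild type, horizontal axis) of each tested gene in the 10 enzymes and the 5 lists around them (vertical axis); each point is a gene, coloured where it passed the adjusted threshold and named. Called genes lie mostly left of 0, and Elovl6 is the called gene farthest to the right.

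The genes whose log2 values, centred on each gene's own mean, lay closest to each called enzyme were found over all tested genes and 9 libraries, by the root mean square difference; predicted genes were left out. For Me1, whose own deviation was 0.483, these were Acadl (0.067), a fatty acid oxidation enzyme, Glb1 (0.089) and Slc52a3 (0.089). For Fads1 (own deviation 0.367) they were AI317395 (0.065), Emx2 (0.085) and Nceh1 (0.089). For Elovl6 (own deviation 0.614) they were farther off, Sox5 (0.184), Ehf (0.187) and Id4 (0.195).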

How the data were processed

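Kidney RNA of 4 wild-type and 5 Bmal1 knockout libraries was sequenced with the Lexogen QuantSeq kit, per the labels' protocols. Bowtie2, bedtools and the build mm10 are named, without versions, per the submitters' processing notes. The deposited values are log2(x + 1) with 3 decimals for 23282 rows; the scale, and that x is an adjusted read count, were read from the values. The sources used here do not give the normalization tool, annotation or strand setting, and raw depth is unknown. Rows with x of at least 10 in at least 4 libraries (13481) entered a limma model (version 3.58.1, R 4.3.3) with a mean-variance trend and two-sided tests, genotype as the single term, with Benjamini-Hochberg adjustment and a threshold of 0.05. The fit was tested on simulated data. Library measures were compared by exact permutation over 126 splits.

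The 10 enzymes, 5 pathway lists and 12 cell type lists were chosen with earlier results of these data known. Named genes were the 10 enzymes and, per pathway list, up to 4 called genes with the smallest adjusted p and the 2 most abundant. Scap, Mlx and Hacd2 were added to give how far their calls held. The 3 genes nearest in pattern to each called enzyme were named as well. Per cell type list described, the 2 most abundant markers and the first listed were named, with further markers where single values are given. Positions came from GENCODE (GRCm38, the assembly of mm10) and promoters from RefSeq (GRCm38.p6). Alternatives changed the filter, pseudocount, scaling, covariates, variance model, replicate block and libraries, 23 in all.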

Additional observations from a re-analysis of the deposited data

Results flagged for a closer look

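The 10 enzymes and 14 library measures were screened in each genotype (48 groups of values). The search was for a library whose gap to the others was large for the group's range. Chance was taken to give about 1 in 20, and 8 were found. Enzymes were on the log2 scale and the library measures were not, so that rate may not hold for the measures. Among the enzymes it was Acaca in knockout 5, at 8.213. The marker sums of white adipocytes (11440), brown adipocytes (3246) and urothelium (956.3) were also far from the other knockouts in knockout 5. Of the wild types, number 2 was far from the rest in the urothelial sum (173.3), the globin share (1.14% of adjusted reads) and the blood sum (154500), as was knockout 4 from the other knockouts in the blood sum (338100). The last 3 measures share the globin genes.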

How the results depend on the processing

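Me1, Fads1 and Elovl6 kept their direction and their call in all 23 alternative settings (Me1 -0.996 to -0.839, Fads1 -0.747 to -0.592, Elovl6 0.857 to 1.214), and the other 7 enzymes were called in 0 of 23. Over all tested genes 1937 were called, 1416 to 2264 with 1 library left out, and 1056 without knockouts 2 and 5. The 76 pathway genes gave 18 calls, 9 to 18 with 1 library left out (9 without wild type 4), 9 without knockouts 2 and 5, 8 with 1 prior variance for all genes, 27 with sample weights and 12 to 15 under the 4 scalings. Direction turned only where the enzyme was not called. Acaca (-0.09) ranged from -0.391 to 0.069 with 1 library left out, and was 0.013 with scaling to the total without Rn45s, 0.06 with Rn45s as a covariate and 0.049 without wild type 2 and knockout 4. Fasn (0.12) ranged from -0.371 to 0.389, and was -0.038 with sample weights and -0.573 without knockouts 2 and 5. Scd1 (0.49) ranged from -0.116 to 0.844, and was -0.543 without knockouts 2 and 5. Scd2 (-0.06) ranged from -0.262 to 0.177, and was 0.042 with scaling to the total without Rn45s and 0.059 with Rn45s as a covariate. Apart from the libraries left out, the cause was not tested. Of all calls 42.9% were higher in knockout, against 55.5% with upper-quartile scaling, 56.8% with scaling to the total and 64.7% with Rn45s taken out of it, which moved the median of all genes to 0.105 on the log2 scale. Precision rests on the number of libraries, since raw depth is unknown.

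Libraries with the same number in both genotypes deviated from their group means with correlations of 0.151, 0.001, -0.007 and 0.041, so the numbers were not taken to pair them. With a replicate block, which takes nothing from knockout 5, 1738 genes, 3 of the 10 enzymes and 16 pathway genes were called; Fasn was at -0.371 and Scd1 at -0.116.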
